A study of Homo sapiens
Mus musculus and Mus musculus and Homo sapiens with 3 samples.

Results

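SST, PPP1R17, ECEL1, NRG1, RET, SNCG and TTC9B are 7 genes described here in human and mouse stem cell cultures during motor neuron differentiation. They are 7 of the 15472 gene symbols that all the deposited count tables share (title-case in mouse). They had been chosen with earlier results of the same cells known, from their levels in cells with STMN2, with and without ISL1 or MNX1, across bins of NEFM, and from human against mouse, so their values in those contrasts, fold changes included, are given as a description with no test. Human cells came from the line NCRM1 (replicate 1) and the line RUES1 (replicate 2, labelled iPS), and mouse cells from C57BL/6 embryonic stem cells (replicates 1 and 2). All had been transduced with a lentivirus carrying a short barcode and CAGGS-driven GFP, differentiated in vitro as embryoid bodies, sampled every 48 hours (human) or 24 hours (mouse), sorted for GFP and profiled with droplet-based single-cell RNA sequencing of transcript 3′ ends. The human and mouse cells numbered 1 formed a single mixed library whose human and mouse parts were deposited apart, which gives 4 library parts from 3 libraries. Sampling days are not tied to cells in the material used here, so cells of all days stand together. Each species has 2 parts and human replicates differ in cell line, so a p-value measures only the spread within and between these cultures. In the fits by class the NEFM bins of 1 part stand as repeated sums, which are not separate cultures. A species difference cannot be told apart from differences in line, sampling interval or gene annotation.

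The genes have different roles, and the name "motor neuron peptides and trophic signals" fits only some of them. SST encodes somatostatin, a peptide hormone and neuropeptide cut from a precursor, packed in dense core vesicles and generally inhibitory at its receptors. NRG1 encodes neuregulin 1, a ligand of ERBB receptors that motor axons use to signal to Schwann cells and muscle. RET encodes the tyrosine kinase receptor for the GDNF family of ligands, which act on motor neurons as survival and guidance factors together with GFRA co-receptors. ECEL1 (also called DINE) encodes a neprilysin-family membrane metallopeptidase that in mouse is needed for motor nerves to branch within muscle. PPP1R17 encodes an inhibitor of protein phosphatases known from Purkinje cells as the G-substrate, SNCG encodes gamma-synuclein, abundant in peripheral motor and sensory neurons, and TTC9B encodes a tetratricopeptide repeat protein. SST and NRG1 are the secreted or shed signals, RET is a receptor, and the other 4 encode an enzyme and intracellular proteins.

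The sequence of the somatostatin peptide is shown because SST is the one secreted peptide among these genes and its transcripts were held by few cells. It lies at the end of the coding sequence, in exon 2 of 2 of mouse Sst on the minus strand, and the bases are from the GENCODE M21 annotation on GRCm38 (mm10), chr16:23889732-23889815. Capitals mark the last 14 of the 28 codons shown, which encode somatostatin-14, and the lower-case codons before them complete somatostatin-28.
Sst: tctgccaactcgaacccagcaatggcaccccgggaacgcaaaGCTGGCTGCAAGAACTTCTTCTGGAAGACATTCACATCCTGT
Sst spans chr16:23889573-23890958 in the same annotation, and human SST spans chr3:187668912-187670394 in the RefSeq annotation of GRCh38.p14.

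After filtering, 2321 and 1805 human cells and 1811 and 2674 mouse cells of replicates 1 and 2 were used, with medians of 11172, 16758, 19178 and 29210 UMIs per cell. A UMI is 1 counted transcript molecule. Levels are UMIs of a gene per 1000000 UMIs of a class of cells (CPM), which cancels total depth but not the differing 3′ end annotations. Cells with at least 1 UMI of STMN2, a microtubule regulator of young neurons, numbered 703 and 690 in human cells, against 420 and 833 in mouse cells. Of these, 289 and 442 human and 163 and 400 mouse cells also had a UMI of ISL1 or MNX1, motor neuron transcription factors, and are called marked. The others are called unmarked, and may include other neurons as well as motor neurons whose low ISL1 and MNX1 counts were missed. NEFM, a neurofilament subunit, gave 3 bins of cells with 0 to 2, 3 to 9 and 10 or more UMIs, with 204, 329, 78 and 257 marked cells in the last bin (human 1 and 2, mouse 1 and 2), called NEFM-rich.

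In the NEFM-rich marked cells all 8 motor neuron genes checked were detected in every part, and they summed to 808 and 1085 CPM in the human parts, against 1042 and 1503 CPM in the mouse parts. CHAT, the acetylcholine-synthesising enzyme, was at 0.501 and 4.21 CPM in human, against 23.4 and 56.0 CPM in mouse, while SLC18A3, the vesicular acetylcholine transporter, was at 129 and 62.0 CPM in the human parts, against 306 and 327 CPM in the mouse parts. Summed over PHOX2A, TBX20, TBX2 and TBX3, branchiovisceral motor neuron markers came to 1.00 and 6.32 CPM in human, with TBX20 at 0 in both replicates, against 329 and 32.9 CPM in mouse, with only TBX2 at 0 and only in replicate 1. The 7 markers of dorsal ISL1 or sensory neurons that were summed came to 2.00 and 1.53 CPM in human, against 13.2 and 29.3 CPM in mouse. Those of V2 interneurons were at most 8.61 CPM in any part and those of V1, V0 or V3 interneurons at most 34.9 CPM. All 7 progenitor genes were detected in every part, and they summed to 2360 and 2077 CPM in human, against 945 and 849 CPM in mouse. Most of the human sum was VIM, an intermediate filament, at 1235 and 1367 CPM, against 634 and 701 CPM in mouse, and FABP7, a fatty acid binding protein, at 1001 and 579 CPM, against 13.2 and 17.9 CPM in mouse. Autonomic or enteric markers summed to 10.5 and 15.7 CPM in human, against 112 and 49.2 CPM in mouse, nearly all of it TH in mouse, with HAND2 and SOX10 at 0 in every part. Epithelial or endodermal markers summed to 56.6 and 57.8 CPM in human, mostly KRT8, against 1.56 and 4.45 CPM in mouse, with SOX17 at 0 in every part. Mesenchymal markers were at most 24.5 CPM and pancreatic endocrine ones at most 6.01 CPM. The part of such cells or transcripts in the species' values was not tested.

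SST was found in few cells. Of the marked cells that held it, 57 of 61 and 90 of 95 were NEFM-rich in human, against 10 of 10 and 46 of 48 in mouse. Among human marked cells its level was 1.98, 30.4 and 465 CPM in the bins of 0 to 2, 3 to 9 and 10 or more NEFM UMIs in replicate 1, and 4.30, 11.8 and 369 CPM in replicate 2. Mouse marked cells had 0, 0 and 255 CPM across the same bins in replicate 1, and 3.41, 0 and 101 CPM in replicate 2. Every part was thus highest in its NEFM-rich bin, and both human NEFM-rich values lay above both mouse values. The lowest bin held 1 and 3 SST UMIs in the human replicates and 0 and 10 in the mouse replicates, so the size of the ratio between bins is poorly fixed. Where the bin held none, in mouse replicate 1, the NEFM-rich level was at least 61.3-fold the level of 3 UMIs, the floor set for a count of 0.

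With each cell thinned to 5500 UMIs, SST was detected in 22.9% (exact 95% interval 17 to 29.8) and 22.5% (17.9 to 27.6) of human NEFM-rich marked cells, against 8.97% (3.68 to 17.6) and 10.2% (6.74 to 14.5) of mouse ones. Without thinning SST was found in 27.9% and 27.4% of the human NEFM-rich marked cells and in 12.8% and 17.9% of the mouse ones. In STMN2-negative cells, taken as background although 4 of them in mouse replicate 2 held 168 SST UMIs, thinned shares were 0.196% and 0.284% in human and 0.219% and 0.683% in mouse. Median depth was 9319 and 16125 UMIs in human NEFM-rich marked cells and 16919 and 26222 UMIs in mouse ones, against 12159 and 18460 UMIs in human STMN2-negative cells and 20849 and 32206 UMIs in mouse ones. The gates on STMN2, ISL1, MNX1 and NEFM used unthinned counts, so the classes were set at unequal depths. The intervals given here, and the others given for shares, cover counting error only.

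The SST transcripts were concentrated in a small group of cells. The 10% of NEFM-rich marked cells with the most SST held 86.3% and 84.8% of the SST UMIs in human, and 99.4% and 94.9% in mouse. The highest single cells held 121 and 197 SST UMIs in human and 84 and 91 in mouse, while the median NEFM-rich cell held 0 in all 4 parts. For ECEL1, found in most of the same cells, the corresponding 10% held 27.9% and 26% of its UMIs in human and 41.7% and 25.3% in mouse. For RET it held 96.7% and 65.6% in human and 92.3% and 55.8% in mouse, and for PPP1R17 43.1% and 54.4%, against 66.4% and 95.9%. The summed SST level thus came from a minority of strongly positive cells, whereas ECEL1 was spread more widely. This share is high for any gene found in few cells, so a high value is not particular to SST.

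ECEL1, the metallopeptidase, was low in NEFM-poor marked cells of all parts and high in NEFM-rich ones. Its levels in the 3 bins were 11.9, 155 and 293 CPM in human replicate 1, 18.6, 72.3 and 285 CPM in human replicate 2, 2.77, 9.56 and 99.0 CPM in mouse replicate 1, and 2.73, 33.1 and 231 CPM in mouse replicate 2. Its level increased at each step in each part. It was detected at equal depth in 73.7% (66.7 to 80.03) and 69.1% (63.6 to 74.2) of human NEFM-rich marked cells, against 33.3% (23.1 to 44.9) and 62.5% (56.3 to 68.5) of mouse ones. The shares in STMN2-negative cells were 1.05% and 0.853% in human and 0.146% and 0.285% in mouse.

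NRG1, the ERBB ligand, was also found in NEFM-poor marked cells, more so in human than in mouse. Human marked cells had 75.3, 186 and 196 CPM across the bins in replicate 1, and 58.7, 99.3 and 142 CPM in replicate 2. Mouse marked cells had 6.93, 24.9 and 45.2 CPM in replicate 1, and 11.3, 21.6 and 128 CPM in replicate 2. In the NEFM-poor bin both human values lay far above both mouse values, while in the NEFM-rich bin human replicate 2 was close to mouse replicate 2. At equal depth 31.6% and 21.6% of human NEFM-poor marked cells had a NRG1 UMI, against 2.04% and 6.25% of mouse ones. In NEFM-rich cells the shares were 58.7% (51.1 to 65.95) and 50.5% (44.8 to 56.2) in human and 21.8% (13.2 to 32.6) and 49.2% (42.9 to 55.5) in mouse.

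RET, the GDNF family receptor, had few UMIs, 30 and 182 in all human marked cells and 18 and 278 in mouse ones. Its marked-cell levels across the 3 bins were 0, 0 and 15.0 CPM in human replicate 1, 0, 3.36 and 34.5 CPM in human replicate 2, 0, 9.56 and 10.1 CPM in mouse replicate 1, and 2.39, 2.54 and 38.6 CPM in mouse replicate 2. The NEFM-rich values of the species overlapped, and in both species replicate 2 was the higher. Against the level of 3 UMIs, NEFM-rich cells had at least 2.53-fold and 8.02-fold more in human and at least 2.44-fold more in mouse replicate 1, the 3 parts in which NEFM-poor marked cells had 0 RET UMIs. RET was detected in 5.59% (2.71 to 10.0) and 15.0% (11.2 to 19.5) of human NEFM-rich marked cells, against 6.41% (2.11 to 14.3) and 16.4% (12.1 to 21.5) of mouse ones. STMN2-negative cells had a share of 0.131% and 0% in human, where a count of 0 allows up to 0.284%, and of 1.53% and 1.65% in mouse.

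PPP1R17, the phosphatase inhibitor, was higher in the human than in the mouse part of the same replicate number in every NEFM bin. Its levels across the bins were 33.7, 139 and 310 CPM in marked cells of human replicate 1, and 31.5, 30.3 and 160 CPM in human replicate 2. Mouse marked cells had 26.3, 86.0 and 92.7 CPM in replicate 1, and 12.3, 11.4 and 20.8 CPM in replicate 2. The NEFM-rich level was 9.20 and 5.09 times the NEFM-poor level in human, against 3.52 and 1.70 times in mouse. At equal depth 48.6% (41.1 to 56.2) and 34.9% (29.5 to 40.5) of human NEFM-rich marked cells had a UMI, against 19.2% (11.2 to 29.7) and 5.47% (3.02 to 9.01) of mouse ones.

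SNCG, gamma-synuclein, had the most UMIs of the 7 genes in each part's marked cells. Human marked cells had 688, 1203 and 1835 CPM across the bins in replicate 1, and 583, 1198 and 2274 CPM in replicate 2. Mouse marked cells had 15.2, 26.8 and 553 CPM in replicate 1, and 13.3, 56.0 and 1348 CPM in replicate 2. Human NEFM-poor cells also had high levels, with NEFM-rich levels 2.67 and 3.90 times as high, whereas in mouse they were 36.3 and 101 times as high. SNCG was detected in 98.9% and 99.0% of human NEFM-rich marked cells, against 51.3% (39.7 to 62.8) and 81.3% (75.9 to 85.8) of mouse ones. It also had a UMI in 35.6% and 33.5% of human STMN2-negative cells, against 3.65% and 5.98% of mouse ones, at 109 and 119 CPM in the human parts, against 7.29 and 13.5 CPM in the mouse parts. Human SNCG counts were thus not limited to STMN2-positive cells, and the part of free RNA in this share was not tested.

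TTC9B, the tetratricopeptide repeat gene, was low in NEFM-poor cells of every part. Its marked-cell levels across the bins were 1.98, 23.7 and 56.6 CPM in human replicate 1, 1.43, 3.36 and 78.7 CPM in human replicate 2, 6.93, 3.82 and 18.7 CPM in mouse replicate 1, and 6.82, 27.98 and 108 CPM in mouse replicate 2. The mouse replicates enclosed the human ones in the NEFM-rich bin. The shares of NEFM-rich marked cells with a UMI were 21.8% (15.98 to 28.6) and 26.4% (21.5 to 31.7) in human and 8.97% (3.68 to 17.6) and 39.5% (33.4 to 45.7) in mouse. In STMN2-negative cells they were 0% in both human parts and 0.511% and 0.626% in mouse.

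**Figure D1:**
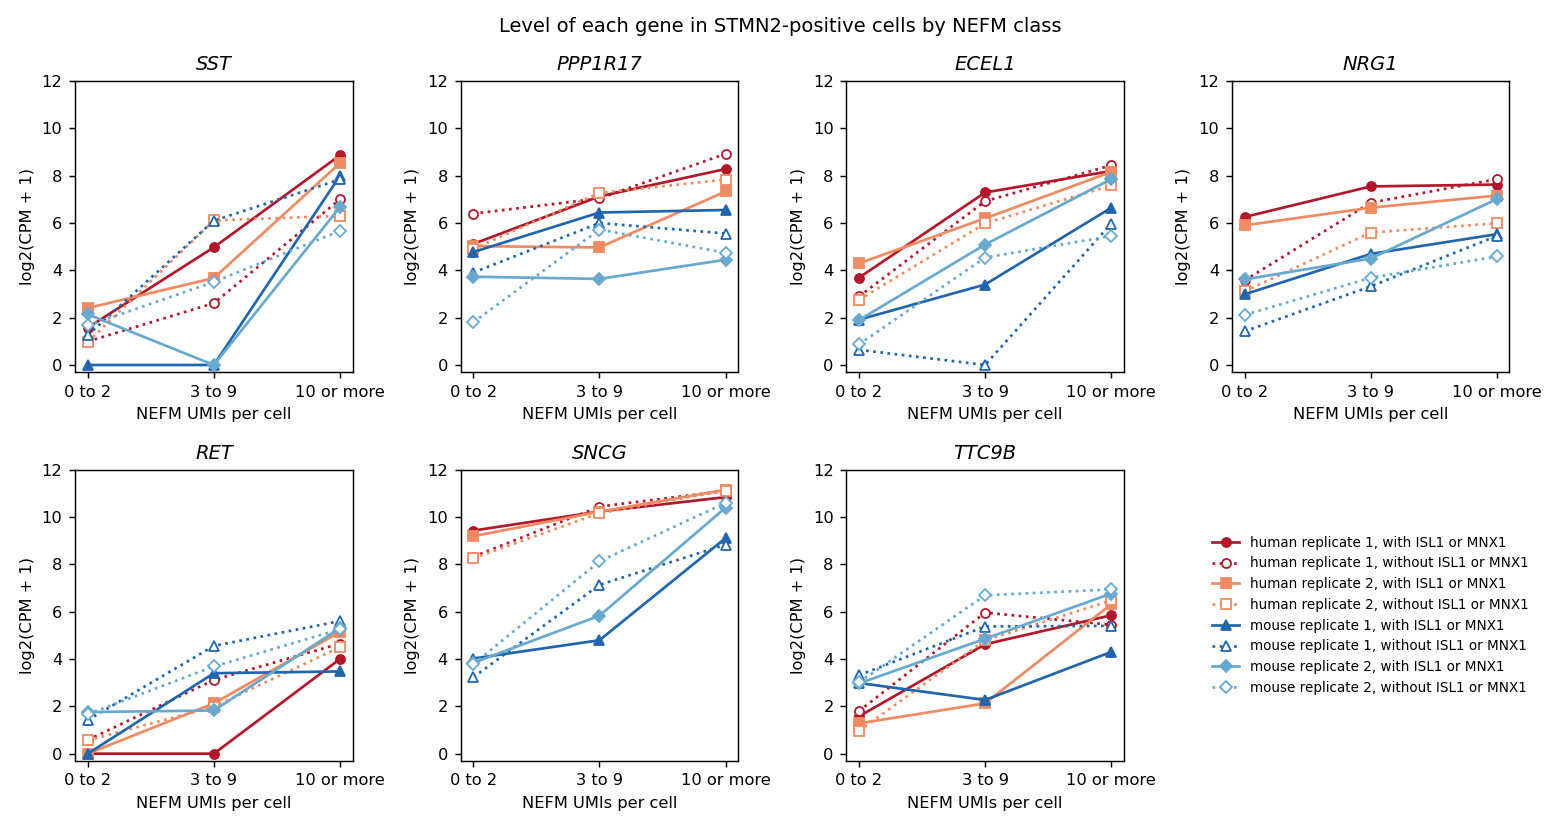
Level of each gene, as log2(CPM + 1), in STMN2-positive cells with 0 to 2, 3 to 9 and 10 or more NEFM UMIs. Filled symbols with solid lines are cells with an ISL1 or MNX1 UMI and open symbols with dotted lines are cells without, each point 1 library part; SST climbs to 465, 369, 255 and 101 CPM in the marked cells of the last bin, and SNCG starts at 688 and 583 CPM in human but at 15.2 and 13.3 CPM in mouse.

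**Figure D2:**
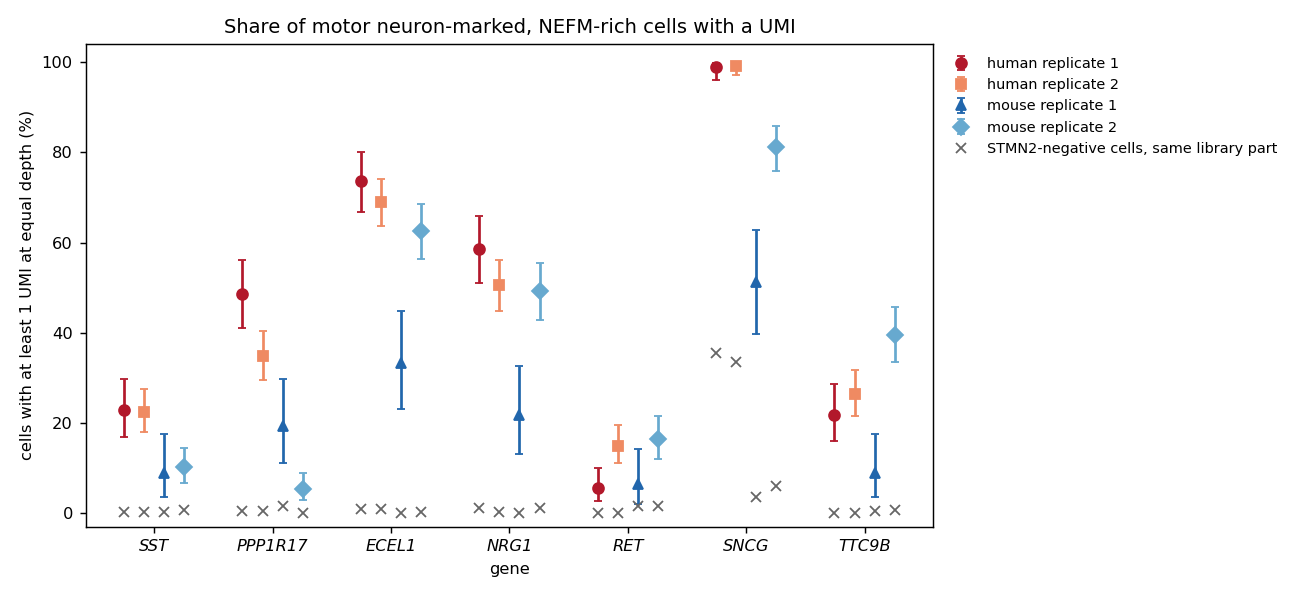
Share of marked cells with 10 or more NEFM UMIs that had at least 1 UMI of each gene after each cell was thinned to 5500 UMIs, by library part, with exact 95% intervals. Crosses are STMN2-negative cells of the same part, under 2% for each gene but SNCG, where they reach 35.6% and 33.5% in human.

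NEFM-rich and NEFM-poor marked cells were compared in 1 fit across 9269 genes, with library part as a block. The 7 genes were chosen on this contrast, so their changes are given with standard errors and no test. The log2 fold changes in human were 6.89 ± 0.77 (SE) for SST, 4.15 ± 0.45 for ECEL1, 1.30 ± 0.37 for NRG1, 2.72 ± 0.47 for PPP1R17, 1.66 ± 0.22 for SNCG and 5.28 ± 0.98 for TTC9B. Human NEFM-poor marked cells held only 1 TTC9B UMI in each replicate, so the size of its change is poorly fixed. Against the level of 3 UMIs, TTC9B was at least 9.52-fold and 18.3-fold higher in human NEFM-rich cells. Those in mouse were 5.48 ± 0.67 for SST, 5.94 ± 0.53 for ECEL1, 3.11 ± 0.44 for NRG1, 3.76 ± 0.70 for RET, 6.18 ± 0.31 for SNCG, 1.15 ± 0.47 for PPP1R17 and 3.27 ± 0.63 for TTC9B. The NEFM-linked change of SNCG was the smaller in human, with a difference of -4.52 ± 0.37 (human minus mouse). The median over the 7 genes was 4.15 in human, or 2.72 with RET at its bound, and 3.76 in mouse, where the medians of all tested genes were 0.05 and 0.01.

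Other genes of the same pathways were taken from lists and tested in the same fit with edgeR's quasi-likelihood test and Benjamini-Hochberg adjustment over all genes. A gene passed at an adjusted p under 0.05. In human 10.6% of all tested genes passed, 5.49% being higher and 5.16% lower in NEFM-rich cells, and in mouse 35.4%, 17.9% being higher and 17.5% lower, so counts in the lists stand against a mouse background that is several times the human one. Of 11 tested genes for peptide processing and dense core vesicles, 7 were higher in human NEFM-rich cells and 0 lower, and in mouse 10 were higher and 1 lower, with list medians of 1.32 and 2.69 on the log2 scale. On DESeq2 size factors 1 of the 11 was also lower in human. PCSK1N, which encodes a proSAAS inhibitor of a prohormone convertase, was higher in NEFM-rich cells by 3.75 ± 0.37 in human and 5.45 ± 0.44 in mouse (log2, edgeR, adjusted p 4.38e-06 and 2.63e-07). SCG5, a chaperone of prohormone convertase 2, was higher by 3.26 ± 0.41 in human, and SCG2, a granin, by 5.82 ± 0.96 in mouse. PCSK2, the convertase itself, was higher by 2.90 ± 0.81 in human, and the granin CHGB by 4.29 ± 0.44 in mouse. The mouse exception, named after its value was seen, was PAM, the amidating enzyme, with a log2 change of -2.07 ± 0.47. SSTR2, the only somatostatin receptor with enough counts to test, was lower in NEFM-rich cells of both species, at -2.46 ± 0.66 in human and -2.21 ± 0.73 in mouse (edgeR, adjusted p 0.0204 and 0.0239).

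In the list of other neuropeptides, 1 of 7 tested genes was higher in human NEFM-rich cells, the neurexophilin gene NXPH4 at 3.11 ± 0.79. CARTPT, among these 7, had few or no human counts. In mouse 4 of 7 were higher, with CARTPT at 8.49 ± 2.08, GAL at 4.09 ± 0.78 and ADCYAP1 at 3.07 ± 1.07. Of 12 other trophic ligands and receptors, 2 were higher and 1 lower in human, and 7 higher and 1 lower in mouse, beside the background shares of 5.49% and 5.16% in human and 17.9% and 17.5% in mouse. NTF3, the ligand neurotrophin 3, was higher by 3.17 ± 0.78 in human and 6.23 ± 1.11 in mouse, whereas NTRK2, the receptor of BDNF, was lower in human, at -3.09 ± 0.86, and higher in mouse, at 2.83 ± 0.83. The difference between the species' NTRK2 changes, human minus mouse, was -5.92 ± 1.20 (edgeR, adjusted p 0.00876), where 3.41% of all tested genes passed, 1.56% being higher and 1.84% lower. Of the 3 testable genes of the GDNF list, only ETV4, a transcription factor induced by GDNF signalling, passed, at 3.54 ± 0.84 in human, and none passed in mouse. Of 5 neuregulin-linked genes none passed in human, and in mouse ERBB2 and ADAM17, a receptor and a shedding enzyme, were lower, at -2.62 ± 0.89 and -2.24 ± 0.44. SNCB, which encodes beta-synuclein, was higher in mouse NEFM-rich cells by 1.67 ± 0.46 and did not pass in human. Within the lists of ECEL1, PPP1R17 and TTC9B relatives, ECE1 was higher in mouse by 1.39 ± 0.53, though not on DESeq2 size factors, PPP1R1A in human by 2.85 ± 0.48, and no TTC9 family gene passed.

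Marked cells were set against unmarked cells within the same NEFM bins, which leaves differences in neurofilament level within a bin. In the NEFM-rich bin, median NEFM was 31 and 54 UMIs in human marked cells, against 25 and 22 UMIs in unmarked ones. Their median depth was 9319 and 16125 UMIs, against 8050 and 12770 UMIs. The part of these gaps in the changes was not tested. The 7 genes were chosen with this contrast in view too, so their values carry no test. Unmarked NEFM-rich cells differed between species. Their V1, V0 or V3 interneuron markers summed to 1.27 and 33.2 CPM in human, against 476 and 345 CPM in mouse. V2 markers summed to 15.3 and 21.7 CPM, against 121 and 166 CPM. Motor neuron genes, ISL1 and MNX1 being absent, summed to 539 and 195 CPM, against 224 and 434 CPM. The part of this in the changes and their species differences was not tested. As a mean over the 3 NEFM bins, the log2 fold change of NRG1 was 1.38 ± 0.24 in human and 1.59 ± 0.34 in mouse. That of ECEL1 in mouse was 1.44 ± 0.40. That of SNCG in mouse was -0.62 ± 0.17, although SNCG was lower in both mouse parts in the middle bin only. Where NEFM was low, the level of NRG1 was higher in marked than in unmarked cells of every part. In the bin of 0 to 2 NEFM UMIs its level was 75.3 and 58.7 CPM in human marked cells, against 10.9 and 7.64 CPM in human unmarked cells, and 6.93 and 11.3 CPM in mouse marked cells, against 1.68 and 3.32 CPM in mouse unmarked cells. In the NEFM-rich bin the same gene was at 196 and 142 CPM in human marked cells, against 230 and 62.5 CPM in human unmarked ones, so that the human replicates went opposite ways there. In that bin mouse marked cells had 45.2 and 128 CPM, against 42.9 and 23.0 CPM in mouse unmarked cells.

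The level of SST in NEFM-rich cells was higher with ISL1 or MNX1 in all 4 parts. It was 465 and 369 CPM in human marked cells, against 127 and 77.8 CPM in human unmarked cells. In mouse it was 255 and 101 CPM in marked cells, against 229 and 49.8 CPM in unmarked cells. The share of these cells with SST at equal depth averaged 22.7% in human marked and 11.6% in human unmarked cells. In mouse the share went the opposite way to the level, averaging 9.57% in marked and 13.1% in unmarked cells. The ratio of levels was 3.66 and 4.74 in human cells, against 1.11 and 2.03 in mouse cells. The fitted changes of SST level over all bins were 0.97 ± 0.71 in human and -2.47 ± 1.15 in mouse. The negative mouse value stands beside 0 SST UMIs in marked cells of the middle bin, against 15 and 7 UMIs in unmarked ones. PPP1R17 went the other way in human, with 310 and 160 CPM in NEFM-rich marked cells, against 485 and 227 CPM in unmarked cells. SNCG, RET and TTC9B had NEFM-rich ratios on either side of 1, from 0.832 to 1.21 for SNCG, 0.213 to 1.59 for RET and 0.453 to 1.33 for TTC9B. The SNCG change in human minus that in mouse was 0.93 ± 0.21, with the 3 bins weighed equally. The mouse SNCG ratio was 1.82 and 1.04 in the bin of 0 to 2 NEFM UMIs. It was 0.192 and 0.201 in the middle bin, and 1.21 and 0.870 in the NEFM-rich bin. With the NEFM bins pooled, the mouse change of SNCG was 1.83 and the human minus mouse difference -0.998.

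Over all tested genes 2.65% passed in human, 1.56% being higher and 1.09% lower in marked cells, and in mouse 5.52%, 2.86% being higher and 2.66% lower. Within the lists, human marked cells had 1 of 11 peptide-processing genes higher, CHGA at 1.16 ± 0.28, and 1 of 7 other neuropeptides lower, CALCB at -1.64 ± 0.38. Mouse marked cells had 4 of 11 peptide-processing genes lower, with VGF at -1.98 ± 0.39, PCSK1N at -1.74 ± 0.22, CADPS at -1.65 ± 0.27 and PAM at -1.57 ± 0.27. The human minus mouse differences of these 4 genes were 2.52 ± 0.47 for VGF, 1.82 ± 0.31 for PCSK1N, 2.20 ± 0.35 for CADPS and 1.61 ± 0.40 for PAM, and passed the same test, where 1.4% of all tested genes passed, 0.583% being higher and 0.82% lower. The neuropeptide precursors CARTPT, at -6.64 ± 1.09, and GAL, at -2.97 ± 0.86, were also lower in mouse marked cells.

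Human marked cells as a whole, compared with mouse marked cells over 10297 shared symbols, had higher levels of SST, at 335 and 298 CPM in human, against 129 and 67.02 CPM in mouse. The species were also among the contrasts behind the choice of the 7 genes, which are therefore described without a test. The log2 fold change of SST was 1.69 ± 0.46, and it was 1.22 with gates on thinned counts. It was 2.35 and 1.22 without mouse replicates 1 and 2. The ratio was 2.59 within the mixed library and 4.44 between the replicates numbered 2. For PPP1R17 the levels were 242 and 135 CPM in human, against 72.4 and 17.8 CPM in mouse (2.08 ± 0.74). For SNCG they were 1561 and 1994 CPM in human, against 290 and 887 CPM in mouse (1.65 ± 0.56). For NRG1 they were 173 and 129 CPM in human, against 30.1 and 88.2 CPM in mouse (1.42 ± 0.52), and for ECEL1 227 and 237 CPM in human, against 53.0 and 154 CPM in mouse (1.22 ± 0.48). Without mouse replicates 1 and 2 the changes were 3.53 and 1.34 for PPP1R17 and 1.09 and 2.53 for SNCG. They were 0.89 and 2.27 for NRG1, and 0.70 and 2.05 for ECEL1. With gates on thinned counts these genes had 2.09, 1.62, 1.22 and 1.14, in the same order. For SST and each of these genes both human values lay above both mouse values. The share of all genes for which this holds is not given here, so nothing is read from it. RET, at 10.7 and 27.9 CPM in human, against 7.12 and 26.0 CPM in mouse, and TTC9B, at 43.3 and 63.5 CPM in human, against 12.3 and 74.2 CPM in mouse, overlapped. NEFM-rich cells made up 204 of 289 and 329 of 442 human marked cells, against 78 of 163 and 257 of 400 mouse ones, and the part of this in the species differences was not tested.

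Species differences in the related lists were larger for some other peptides than for SST, always on a scale that depends on how each annotation captures the 3′ end. Over all tested genes 18.7% passed, 10.9% being higher and 7.81% lower in human. Of 8 other neuropeptides tested, 3 were higher in human, CALCB at 9.24 ± 1.16, NMU at 8.47 ± 0.77 and TRH at 3.90 ± 0.89, and 2 were lower, CARTPT at -9.25 ± 1.48 and GAL at -2.65 ± 0.73 (edgeR, adjusted p 0.00920, 0.00414, 0.0288, 0.0149 and 0.0469). CALCB and NMU in mouse and CARTPT in human had few or no counts. Only the direction of these changes is read, and their size is poorly fixed. ETV4 and ETV5, at 4.06 ± 0.70 and 3.81 ± 0.85, were higher in human. Of 5 neuregulin-linked genes, EGFR at 4.38 ± 0.90, ERBB2 at 2.36 ± 0.65 and ADAM17 at 2.07 ± 0.48 were higher in human. The synuclein gene SNCB was lower in human, at -5.33 ± 0.60. Of 11 peptide-processing genes 0 passed, and the list's median was 1.00 where that of all tested genes was -0.01.

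LHX3, a transcription factor kept in medial motor column neurons and lost from other motor neurons as they mature, was not used to choose the 7 genes, so they were tested between LHX3-positive and LHX3-negative marked cells, with library part and NEFM bin as a block. LHX3 status still moved with NEFM level within the NEFM-rich bin, and NEFM was used in the choice. These tests are therefore not fully independent of the choice. SST was lower in LHX3-positive cells of both species. Its level in NEFM-rich marked cells was 61.9 and 153 CPM in LHX3-positive human cells, against 721 and 480 CPM in LHX3-negative human cells. In mouse it was 54.7 and 66.4 CPM in LHX3-positive cells, against 359 and 175 CPM in LHX3-negative cells. No LHX3-positive value reached any LHX3-negative value. Over all NEFM bins the log2 fold change of SST was -2.53 ± 0.33 in human (edgeR, adjusted p 4.07e-05) and -1.87 ± 0.35 in mouse (edgeR, adjusted p 0.00493), with 4 of 4 parts in the same direction. The difference between the species' changes was -0.65 ± 0.49 (human minus mouse, edgeR, adjusted p 0.722) and did not pass, but with gates on thinned counts the human change was -6.63 and the difference -5.04, which passed (edgeR, adjusted p 3.49e-06). Its sign was not stable, at 0.061 without human replicate 1 and 0.21 without mouse replicate 2. In human, 5.4% of the 8474 tested genes passed, 2.63% being lower and 2.77% higher, and in mouse 1.32%, 0.625% being lower and 0.696% higher. Without mouse replicate 1 the mouse value was -1.42 and no longer passed. With library part not a term the human change was -2.77 and passed, and the mouse change was -2.10 and did not (edgeR, adjusted p 0.0131 and 0.29).

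TTC9B separated the human cells by LHX3 and not the mouse cells of replicate 2. Its NEFM-rich levels were 2.58 and 21.5 CPM in LHX3-positive human cells, against 91.0 and 108 CPM in LHX3-negative ones. Mouse LHX3-positive cells had 4.55 and 117 CPM, against 26.1 and 87.9 CPM in mouse LHX3-negative cells, so the mouse replicates went opposite ways. The log2 fold change was -2.90 ± 0.43 in human (edgeR, adjusted p 9.59e-05) and 0.25 ± 0.38 in mouse (adjusted p 0.944), and the difference between them was -3.15 ± 0.58 (edgeR, adjusted p 0.00665), where 0.732% of all tested genes passed, 0.389% being lower. Without mouse replicate 2 the mouse value was -1.31, and the species difference was -1.52 and no longer passed. Without human replicate 1 the species difference was -2.45 and no longer passed either.

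RET and PPP1R17 were also lower in human LHX3-positive cells, each resting on replicate 1. RET had 0 and 13.6 CPM in LHX3-positive human NEFM-rich cells, against 24.6 and 45.2 CPM in LHX3-negative ones (-2.25 ± 0.53, edgeR, adjusted p 0.0143). PPP1R17 had 51.5 and 147 CPM in LHX3-positive human cells, against 475 and 167 CPM in LHX3-negative ones (-1.86 ± 0.52, edgeR, adjusted p 0.0338). Without human replicate 1 the changes were -1.76 for RET and -0.53 for PPP1R17 and did not pass. The RET change did not pass with DESeq2's Wald test either (-2.54, adjusted p 0.208), nor did either gene with library part not a term. Both had lower values in the LHX3-positive cells of both mouse parts too, RET with 0 and 31.6 CPM, against 15.4 and 53.3 CPM in LHX3-negative mouse cells, and PPP1R17 with 11.4 and 10.2 CPM, against 135 and 43.1 CPM. The mouse fits, -1.10 ± 0.46 for RET and -1.62 ± 0.57 for PPP1R17, did not pass (edgeR, adjusted p 0.366 and 0.215).

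ECEL1, NRG1 and SNCG did not pass in either species. Their human changes were -0.35 ± 0.19, 0.67 ± 0.22 and 0.02 ± 0.18 (edgeR, adjusted p 0.371, 0.0776 and 0.998), and their mouse changes 0.15 ± 0.24, -0.29 ± 0.29 and -1.01 ± 0.27 (adjusted p 0.955, 0.873 and 0.0637). NRG1 in human was at 236 and 191 CPM in LHX3-positive cells, against 171 and 116 CPM in LHX3-negative cells. Thus 4 of the 7 genes were lower in human LHX3-positive cells, where 2.63% of all tested genes were, and 1 of 7 in mouse ones, where 0.625% were. The genes were chosen on NEFM, which moved with LHX3, so nothing is read from how these counts compare with the shares. Counts of calls depended on the setting. NRG1 passed as higher in human in 6 of 12 alternatives, with changes of 0.64 to 0.76 there. In mouse SNCG passed as lower in 3 of 12, at -2.12 without mouse replicate 2, and PPP1R17 in 2 of 12, at -1.597 with no filter and -2.09 with at least 2 ISL1 or MNX1 UMIs.

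Other measures moved with LHX3 in the same cells. NEFM itself was at 3052 and 3680 CPM in LHX3-positive human NEFM-rich cells, against 4051 and 5136 CPM in LHX3-negative ones, and at 1291 and 2697 CPM in LHX3-positive mouse cells, against 2499 and 3155 CPM. With the NEFM-rich bin split again at 30 UMIs, the change of SST was -2.33 in human and -1.84 in mouse. STMN2 was at 2006 and 2586 CPM in LHX3-positive human NEFM-rich cells, against 4510 and 4690 CPM in LHX3-negative ones. The part of STMN2 level in the LHX3 changes was not tested. Median depth in the NEFM-rich bin was 10189 and 16154 UMIs in LHX3-positive human cells, against 9085 and 16087 UMIs in LHX3-negative ones, and 17068 and 26118 UMIs in mouse LHX3-positive cells, against 16919 and 26450 UMIs. It differed more in other bins, at 15715 and 15140 UMIs in LHX3-positive cells of human replicate 2 with 0 to 2 and 3 to 9 NEFM UMIs, against 7241 and 5500 UMIs in LHX3-negative ones, and at 20345 UMIs in LHX3-positive cells of mouse replicate 2 with 0 to 2 NEFM UMIs, against 35651 UMIs. The part of depth in the LHX3 changes was not tested. An LHX3-negative cell may also be one whose LHX3 transcripts were missed, and the part this plays was not tested.

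Within the lists, human LHX3-positive cells had 2 of 11 peptide-processing genes lower, PCSK1N at -2.20 ± 0.22 and SCG5 at -1.47 ± 0.21, while 0 of 11 passed in mouse, beside background shares of 2.63% and 0.625% lower. Both changes differed between species, by -1.69 ± 0.34 and -1.503 ± 0.303 (human minus mouse, edgeR, adjusted p 0.0119 and 0.0118). ETV4 was lower in human LHX3-positive cells, at -4.62 ± 0.70. So were NXPH4 and CALCB of the list of other neuropeptides, at -2.16 ± 0.48 and -2.06 ± 0.57. PTN, the secreted growth factor pleiotrophin, was the list gene lower in both species, at -2.06 ± 0.46 in human and -3.10 ± 0.38 in mouse (edgeR, adjusted p 0.00713 and 3.99e-05). MDK, its relative midkine, was higher in human by 0.61 ± 0.16, though not on DESeq2 size factors.

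**Figure D3:**
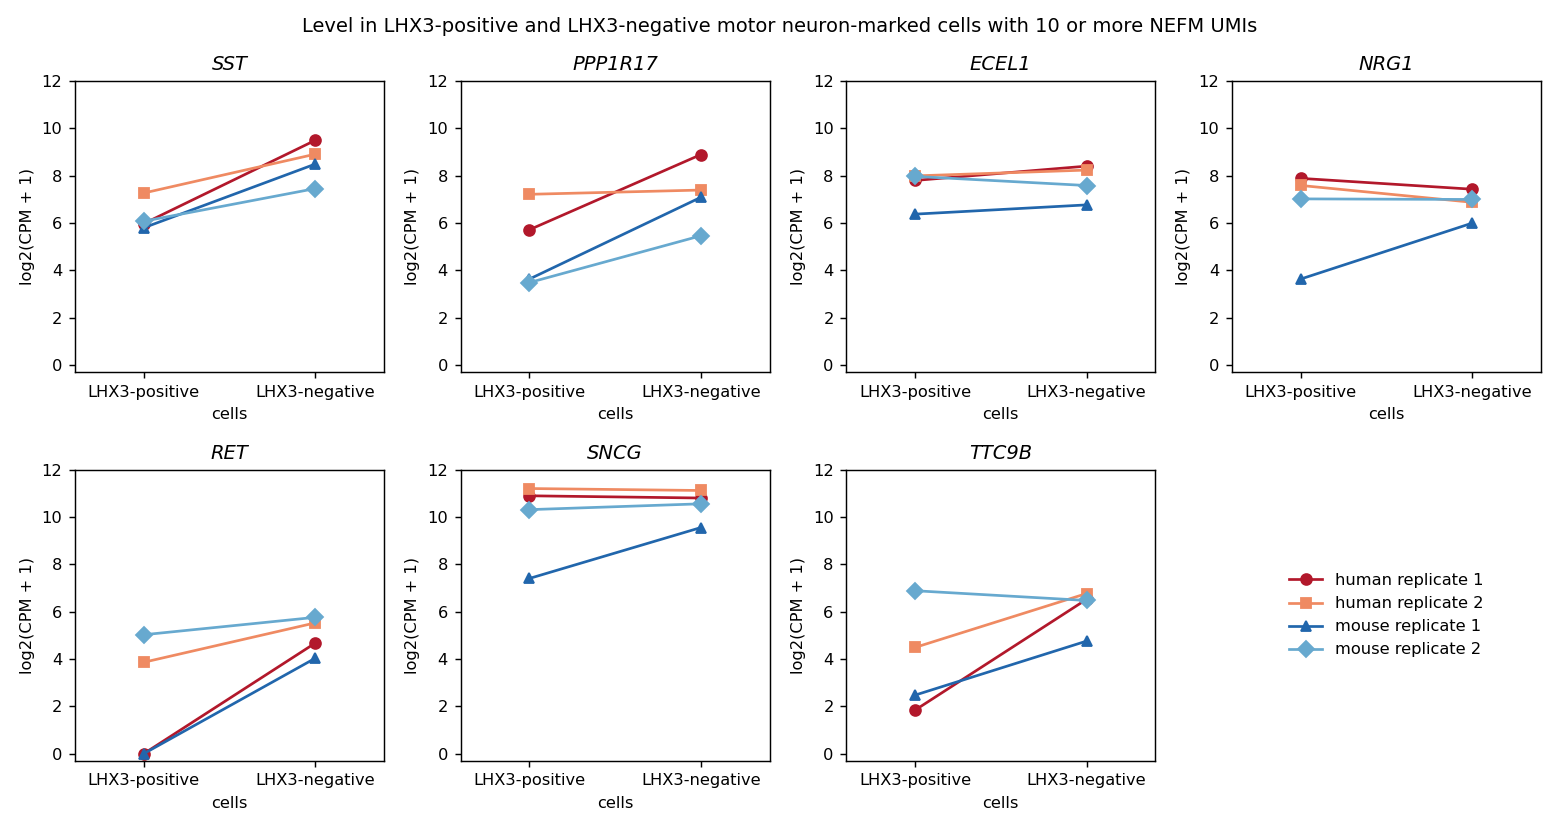
Level of each gene, as log2(CPM + 1), in LHX3-positive and LHX3-negative marked cells with 10 or more NEFM UMIs, each line 1 library part. SST is lower on the LHX3-positive side in all 4 parts, with 61.9, 153, 54.7 and 66.4 CPM, against 721, 480, 359 and 175 CPM on the LHX3-negative side, whereas TTC9B does so in both human parts and mouse replicate 1 only.

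Split by which of the 2 markers was found, NEFM-rich cells with ISL1 alone, MNX1 alone or both gave different orders for different genes. SST in cells with ISL1 alone was at 605 and 361 CPM in the human parts, against 417 and 128 CPM in the mouse parts, in cells with MNX1 alone at 388 and 247 CPM in the human parts, against 91.6 and 9.14 CPM in the mouse parts, and in cells with both at 347 and 408 CPM in the human parts, against 199 and 122 CPM in the mouse parts. SST was higher with ISL1 alone than with MNX1 alone in all 4 parts, and RET was too, at 26.0 and 38.8 CPM in the human parts, against 23.1 and 80.5 CPM in the mouse parts with ISL1 alone, against 4.73 and 25.5 CPM in the human parts, against 3.39 and 40.4 CPM in the mouse parts with MNX1 alone. NRG1 had 187 and 83.6 CPM in human with ISL1 alone, against 224 and 185 CPM with MNX1 alone. These splits used the selecting markers and are given without a test.

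At equal depth single NEFM-rich marked cells held a median of 3 of the 7 transcripts in both human parts, against 1 in mouse replicate 1 and 3 in mouse replicate 2. They had on average 3.30 and 3.17 of the 7 in human, against 1.5 and 2.64 in mouse, and 43.0% and 42.0% of human cells held 4 or more, against 6.41% and 27.3% of mouse ones. Cells with none of the 7 made up 0% and 0.651% in human, but 21.8% in mouse replicate 1 and 5.86% in mouse replicate 2. In the bin of 0 to 2 NEFM UMIs the averages were 1.21 and 1.16 in human, most of it SNCG, against 0.184 and 0.323 in mouse. A single cell held all 7 in each human part, and none did in mouse.

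For each of the 21 pairs the number of NEFM-rich marked cells with both genes was set against the number that the shares of the 2 genes would give if they fell independently. The ratio was above 1 in all 4 parts for 5 pairs, of which 3 were ECEL1 with NRG1, RET and TTC9B. The other pairs were SST and ECEL1 with SNCG, which is left unread, since SNCG was in 98.9% and 99.0% of the human cells and its ratio cannot move far above 1 there. The ratio was below 1 in all 4 parts for 0 pairs and mixed for 16. Cells differ in their neuronal content and are not replicates, so no test was made. The 3 pairs of ECEL1 ran from 1.05 to 2.14, the highest being 5 cells of mouse replicate 1 with both ECEL1 and TTC9B.

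Human SST-positive cells held RET and TTC9B more often than SST-negative cells did. Of SST-positive NEFM-rich cells, 56.1% and 52.2% had TTC9B in human, against 11.6% and 18.9% of SST-negative cells, and 14.6% and 37.7% had RET, against 2.90% and 8.40%. In mouse replicate 2 RET was likewise more frequent with SST, in 42.3% of SST-positive cells, against 13.5% of SST-negative cells, while TTC9B was not, at 34.6%, against 40.0%. Mouse replicate 1 had only 7 SST-positive cells at this depth, of which 0 had RET or TTC9B, too few to tell. NRG1 was less frequent in SST-positive cells of human, 46.3% and 37.7%, against 62.3% and 54.2% of SST-negative cells, and of mouse replicate 2, 42.3%, against 50%. PPP1R17 went with SST in human replicate 1, in 87.8% of SST-positive cells, against 37.0% of SST-negative cells, but not in human replicate 2, with 36.2%, against 34.5%, nor in mouse, where 1 and 0 cells had both.

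**Figure D4:**
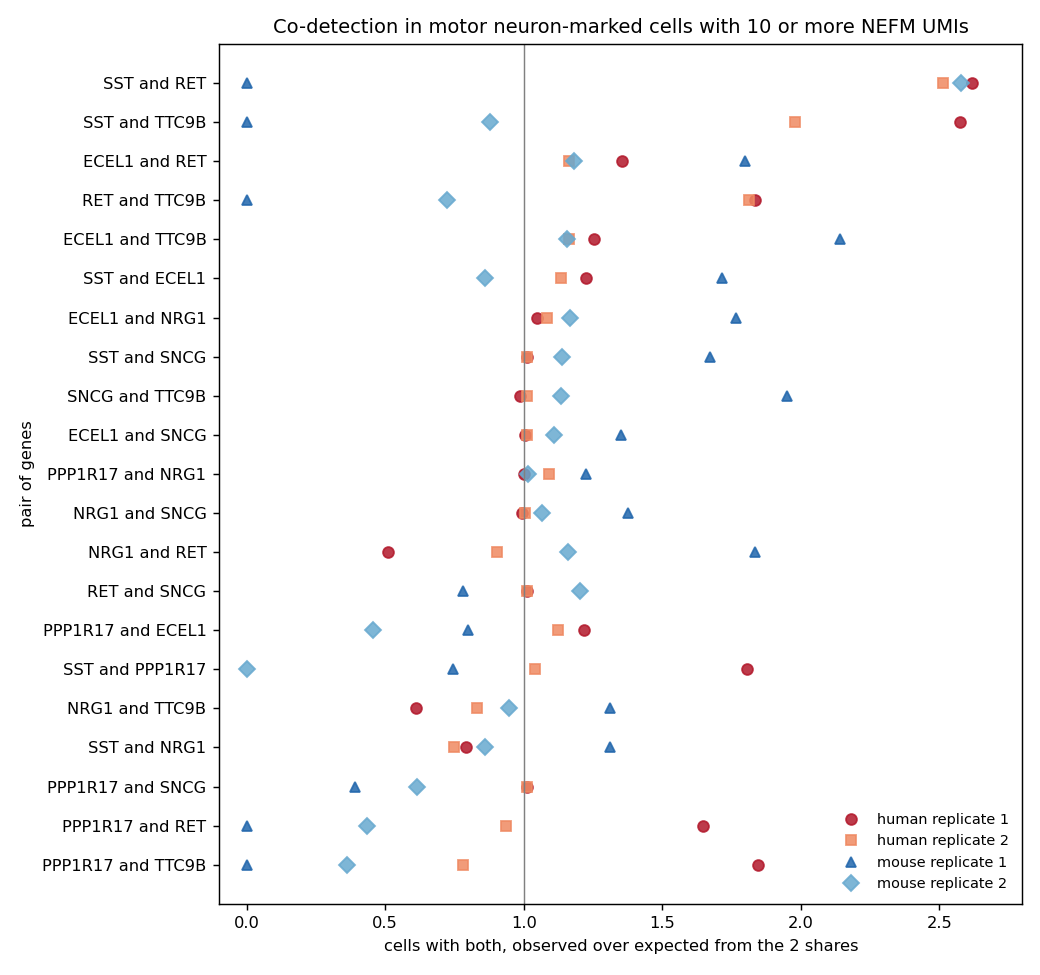
Number of marked cells with 10 or more NEFM UMIs that held both genes of a pair, over the number expected from the 2 shares, at 5500 UMIs per cell and by library part, with 1 marked by a line. SST with RET reaches 2.62 and 2.51 in human and 2.58 in mouse replicate 2 but 0 in mouse replicate 1, where 0.449 cells with both were expected.

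Across 24 classes of cells (4 parts by marked or unmarked by NEFM bin) and 9268 other genes, the closest profile to each gene was named by Pearson's r of log2(CPM + 10), centred within each part. The closest to ECEL1 was GAP43, a growth cone protein (r = 0.97), and the closest to TTC9B was SCG5 (0.97), followed by MAPRE3 and NSG1. SNCG was closest to MGST3 (0.96), RET to SULT4A1 (0.92), NRG1 to CNST (0.90) with MEIS1 and ECEL1 next, SST to FBXW7 (0.89), and PPP1R17 to ERICH1 (0.85). Among the 7 themselves the highest r was 0.89, for ECEL1 with NRG1, and the lowest 0.51, for PPP1R17 with NRG1. The 24 classes share libraries and the NEFM gradient, so these values are a description, with no test.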

How the data were processed

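UMI counts per gene and cell were deposited by the authors as raw counts. Per the submitters' processing notes they were made with Cell Ranger 3.1.0 on hg38 and mm10. The 4 tables hold 28577630 and 32803173 UMIs (human) and 38166382 and 83969715 UMIs (mouse), over 32735 and 56832 human and 27998 and 54087 mouse symbols, so their annotations differ. Cells were dropped below 1000 UMIs or 500 genes, or above 10% mitochondrial UMIs. Scrublet (expected rate 5%) removed 13 and 24 human and 5 and 32 mouse cells as doublets, and 58 human and 60 mouse cells with barcodes shared within the mixed library were removed; other pairs shared 0 to 2. Cells were thinned to 5500 UMIs for shares, with the classes set on unthinned counts.

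UMIs were summed per library part and class and tested with edgeR 4.0.16 (R 4.3.3; quasi-likelihood test, TMM, filterByExpr, Benjamini-Hochberg), with library part as a block. The fit was tested on simulated data. DESeq2 1.42.0 was an alternative. A gene passed at an adjusted p under 0.05. Intervals are exact Clopper-Pearson. The species comparison has no block. The members and lists were chosen with earlier results of these data known. Named list genes are up to 4 a comparison that passed, largest change first, and the 3 nearest profiles per gene. A few genes of the lists, and an alternative that rested on such a gene, are not reported here.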

Additional observations from a re-analysis of the deposited data

Results flagged for a closer look

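TTC9B differed between species in its change with LHX3 by -3.15 ± 0.58 (edgeR, adjusted p 0.00665), from -2.90 ± 0.43 in human and 0.25 ± 0.38 in mouse, where the mouse replicates went opposite ways.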

How the results depend on the processing

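Counts of genes passing moved by more than 1.5 times as follows. Marked against unmarked in human (246) gave 514 with no filter, 509 with at least 2 ISL1 or MNX1 UMIs, 111 with thinned gates, 975 with bins pooled, and 8 to 506 leaving out 1 part. In mouse (512) it gave 776 with no filter, 784 with at least 3 STMN2 UMIs, 2572 with bins pooled, and 175 to 518 leaving out 1 part. The share of its calls that were higher was 40.7% on DESeq2 size factors, with 222 of 545, against 265 of 512. The difference between species (130) gave 430 with no filter, 248 with at least 3 STMN2 UMIs, 272 with at least 2 ISL1 or MNX1 UMIs, 74 with thinned gates, 63 with bins pooled, and 4 to 253 leaving out 1 part. The NEFM contrast gave 622 with thinned gates and 100 to 1405 leaving out 1 part in human (987). In mouse (3279) it gave 2010 with at least 3 STMN2 UMIs, 1060 with thinned gates and 316 to 3903 leaving out 1 part. Its species difference (316) gave 639 with no filter, 164 with at least 3 STMN2 UMIs, 96 with at least 2 ISL1 or MNX1 UMIs, 91 with thinned gates, and 19 to 981 leaving out 1 part. Human against mouse (1923) gave 3278 with no filter, 1254 with thinned gates, and 448 to 1628 leaving out 1 part. LHX3 in human (458) gave 284 with DESeq2, 244 with thinned gates, 732 with the last bin split at 30 UMIs, a choice made after seeing the data, and 102 to 566 leaving out 1 part. LHX3 in mouse (112) gave 68 with DESeq2, 296 with no filter, 33 with at least 3 STMN2 UMIs, 39 with thinned gates, and 32 to 121 leaving out 1 part. The cause was not tested.

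With no replicate block (library part not a term) the counts were 7 and 64 for marked against unmarked in human and mouse, 0 for their difference by edgeR (505 at an unadjusted p under 0.05), 70 and 667 for NEFM, 4 for their difference, and 22 and 5 for LHX3. The LHX3 changes of PPP1R17 (-2.34), RET (-2.22) and TTC9B (-2.99) in human and SST in mouse (-2.10) then did not pass. With the replicate number as a block, human against mouse gave 2737. Deviations of same-numbered human and mouse parts correlated at 0.273 over 10301 genes in 2 pairs, and the numbers were not taken as pairs.

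Some changes reversed. With bins pooled SNCG in mouse, -0.62 as reported, gave 1.83 and its species difference, 0.93 as reported, gave -0.998, with all parts kept. The species difference of SST with LHX3 gave 0.0030 with at least 2 ISL1 or MNX1 UMIs, and -1.52 to 0.21 leaving out 1 part. With LHX3 in human SNCG gave -0.024 on DESeq2 size factors, -0.041 with DESeq2, -0.063 with at least 3 STMN2 UMIs, -0.078 with at least 2 ISL1 or MNX1 UMIs, and -0.046 and 0.090 without human replicates 2 and 1. With LHX3 in mouse ECEL1 gave -0.39 and 0.501 without mouse replicates 2 and 1, NRG1 gave 0.13 with the split at 30 UMIs and 0.16 and -1.39 without mouse replicates 1 and 2, and TTC9B gave -1.31 and 0.65 without mouse replicates 2 and 1.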

Other observations

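SST was also found outside STMN2-positive cells in mouse replicate 2. There 216 SST UMIs lay in 31 STMN2-negative cells, and 4 of these cells held 168 of them. The 4 cells had EPCAM in 4, KRT8 in 2, HHEX in 1 and NEFM in 1, and ISL1 or MNX1 in 0. In the other parts no STMN2-negative cell held more than 4 SST UMIs.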
